A study of Rattus norvegicus with 4 samples.

Results

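The genes described here are 10 members of the integrated stress response that centre on the transcription factor ATF4: Atf4, Ddit3, Atf3, Cebpg, Trib3, Asns, Chac1, Sesn2, Ddit4 and Ppp1r15a. They were chosen by name, and all 10 were found among 16581 rat genes with a symbol on the arrays, through 11 probes printed in 22 spots. Messenger RNA was measured in NR8383 cells, a rat alveolar macrophage line established by lung lavage, after 20 passages. The single group analysed held 4 biological replicates exposed to NiZnFe2O4, whose formula names nickel, zinc, iron and oxygen, at 9.25 µg/mL for 4 h. The design also names unexposed cells, which were not analysed here, so no value below shows what the exposure changed and no test between groups was made.

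The integrated stress response begins with kinases that phosphorylate the translation initiation factor eIF2 when cells lack amino acids or heme, accumulate unfolded proteins or detect viral RNA. Phosphorylated eIF2 slows general translation but favours translation of the Atf4 messenger RNA, whose upstream reading frames otherwise hold it back. ATF4 protein then switches on genes of amino acid supply, redox balance and, under lasting stress, cell death, and much of this control of ATF4 lies beyond messenger RNA level.

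ATF4 acts on many of its targets through C/EBP-ATF response elements, short sites bound by ATF4 together with a C/EBP partner. Promoter windows from 250 bases before to 50 bases after the annotated gene start were taken from RefSeq (GRCr8) and were present for 9 of the 10 genes, all except Atf3. The core letters TGATGNAA, searched on both strands, occurred in 2 of these 9 windows, those of Trib3 and Chac1, and in 3.98% of 33365 distinct promoter windows of the rat. The cAMP response element TGACGTCA, a site of ATF and CREB family factors that reads the same on both strands, occurred in the window of Ppp1r15a and in 1.83% of all windows. No match overlapped another. The 3 windows that held a match are printed 5′ to 3′ on the strand of the gene, with the matched letters in capitals, because ATF and C/EBP factors are known to act through such letters. Those of Trib3 (chr3:161275484-161275783, minus strand) and Chac1 (chr3:126795881-126796180, plus strand) carry the core in reverse orientation, and that of Ppp1r15a is chr1:105139547-105139846 on the minus strand.
Trib3: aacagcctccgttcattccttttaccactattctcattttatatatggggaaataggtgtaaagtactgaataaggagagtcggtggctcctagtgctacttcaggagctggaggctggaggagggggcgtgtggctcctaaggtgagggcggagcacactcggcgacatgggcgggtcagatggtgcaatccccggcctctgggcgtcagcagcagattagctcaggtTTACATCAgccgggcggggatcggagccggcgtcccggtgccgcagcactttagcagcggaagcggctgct
Chac1: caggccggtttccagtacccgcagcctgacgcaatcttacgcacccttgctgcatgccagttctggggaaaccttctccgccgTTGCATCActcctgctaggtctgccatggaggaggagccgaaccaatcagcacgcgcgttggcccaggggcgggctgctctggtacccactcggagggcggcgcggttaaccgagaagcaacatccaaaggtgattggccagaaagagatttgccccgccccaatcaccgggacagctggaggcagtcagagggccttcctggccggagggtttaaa
Ppp1r15a: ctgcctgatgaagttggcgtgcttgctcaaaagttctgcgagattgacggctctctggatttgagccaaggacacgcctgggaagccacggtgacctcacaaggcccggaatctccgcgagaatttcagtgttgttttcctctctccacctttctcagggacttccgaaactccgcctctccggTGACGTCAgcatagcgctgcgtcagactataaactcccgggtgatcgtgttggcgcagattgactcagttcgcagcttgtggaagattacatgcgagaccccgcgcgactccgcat
The Trib3 match lay 21 to 14 bases before the annotated start, the Chac1 match 167 to 160 bases before it and the Ppp1r15a match 66 to 59 bases before it. A match is a description of the letters and not a measured binding site, and a window without one may still lie near a site outside it.

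All 10 genes passed as well above background on every one of the 4 arrays, a call set by the extraction software for each spot. Over all 16581 genes this call was reached by 38.7%. No member spot was saturated, and 3 of 88 spot values, all of Atf4, carried an outlier flag and were left out. The cells carried 8 of 10 macrophage markers on all 4 arrays, among them Cd68, Lyz2 and Ptprc, while Marco and Adgre1 were well above background on no array. None of 4 lung epithelial, 3 lymphocyte and 3 fibroblast markers passed on any array. The 4 arrays shared 1 slide and 1 scan time per the file headers. They differed in brightness, with the 75th percentile of the processed signal over probes at 41.6, 32.7, 23.5 and 24.8 intensity units on replicates 1 to 4. Signals are therefore given as measured, and levels are log2 signals relative to this percentile of the same array. Signals of different probes are not set against each other, since they depend on the probe sequence.

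**Figure D1:**
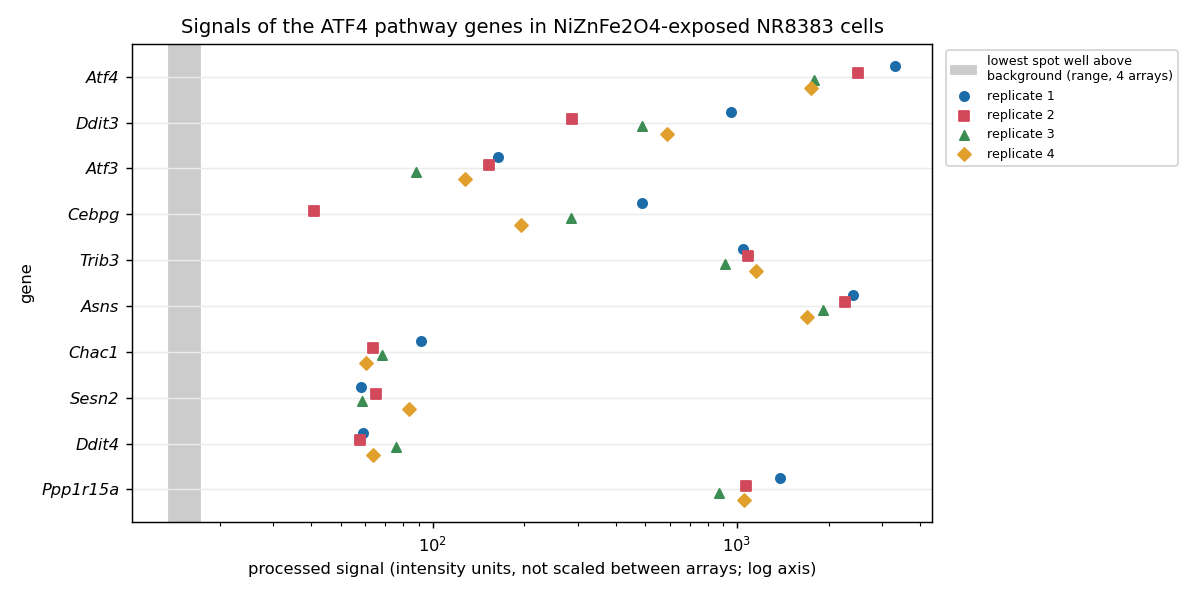
Processed signal of each of the 10 genes on each array, in intensity units on a log axis, without scaling between arrays; 1 point is 1 replicate and the grey band spans the lowest signal of a spot well above background on the 4 arrays. All points lie right of the band, Cebpg on replicate 2 and Sesn2, Ddit4 and Chac1 closest to it; distances between genes carry no meaning.

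Atf4, the central transcription factor, differed little between replicates once the arrays were scaled. Its probe was printed in 10 spots and gave processed signals of 3312, 2505, 1784 and 1751 intensity units on replicates 1 to 4, each the geometric mean of the 8 to 10 spots without an outlier flag. Replicate 1 was the brightest and replicates 3 and 4 were the dimmest, in step with the brightness of the arrays themselves. Relative to the 75th percentile, the log2 levels were 6.31, 6.26, 6.25 and 6.14, a mean of 6.24 ± 0.07 (SD, n = 4). The highest and lowest arrays differed 1.12-fold after scaling, against 1.89-fold before it, and only 3.43% of genes well above background had a smaller SD. This small spread belongs to the scaling chosen, since the SD of Atf4 was 0.18 after quantile normalization, 0.14 when the percentile was taken over detected probes and 0.44 without scaling.

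The repeated spots show how finely a single array measured Atf4. They lay between rows 25 and 354, far apart on each array. For spots without an outlier flag the coefficient of variation was 1.99%, 3.46%, 2.74% and 4.81% on replicates 1 to 4. Before scaling, the unflagged spots spanned 3215 to 3394 on replicate 1 and 2409 to 2665 on replicate 2, and these ranges did not overlap. The flagged spots gave 2993 and 3049 on replicate 1 and 1664 on replicate 3. The arrays of replicates 1 and 2 themselves differed in brightness, with 75th percentiles of 41.6 and 32.7, so these unscaled ranges show no difference in Atf4. On replicates 3 and 4 they spanned 1730.3 to 1858 and 1598 to 1837, and these ranges overlapped. Spots of 1 array are not replicates of the exposure, and they describe printing and hybridisation only.

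**Figure D2:**
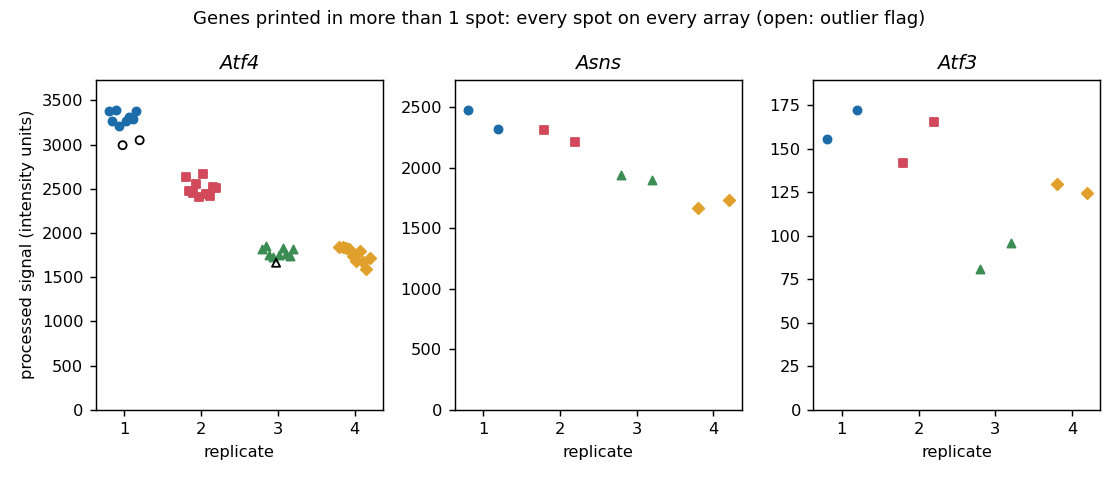
Processed signal in intensity units of every spot of the 3 genes with a probe printed in more than 1 spot, by replicate, with an axis from 0 for each gene. Open points carried an outlier flag. Ddit4, whose 2 spots belong to 2 different probes, is not among the 3 genes. The spots of Atf4 and of Asns lie close together within an array compared with the distance between replicates 1 and 4, while the 2 spots of Atf3 lie further apart for their level on replicates 1, 2 and 3.

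Ddit3 encodes CHOP, a bZIP factor that ATF4 induces and that promotes cell death under lasting stress. Its single spot gave 957, 287, 488 and 589.5 intensity units on replicates 1 to 4. Replicate 2 was the lowest, below the dimmer arrays 3 and 4. The log2 levels were 4.52, 3.13, 4.38 and 4.57, a mean of 4.15 ± 0.68 (SD, n = 4), and without replicate 2 the mean was 4.49 ± 0.10 (SD, n = 3). Replicate 2 stood 2.56-fold below the mean log2 level of the other arrays. By Dixon's ratio, the gap of the outermost array to its neighbour over the whole range, Ddit3 was the 1 member of 10 with 1 array apart, a call that 4.92% of all genes well above background reached.

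Cebpg encodes C/EBP gamma, a bZIP protein without a strong activation domain of its own that pairs with ATF4 on C/EBP-ATF sites. Its single spot gave 489, 40.6, 284 and 196 intensity units on replicates 1 to 4. The replicate 2 value was far below the rest, at 2.99 times the lowest signal called well above background on that array. The log2 levels were 3.55, 0.31, 3.60 and 2.98, a mean of 2.61 ± 1.56 (SD, n = 4). Without replicate 2 the mean was 3.38 ± 0.34 (SD, n = 3), and 99.97% of genes well above background had a smaller SD than Cebpg over all 4 arrays.

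On the replicate 2 array the Ddit3 and Cebpg spots sat where most signals were lowered. Ddit3 was printed at row 210 and column 85 and Cebpg at row 185 and column 82, inside a rectangle of rows 155 to 219 and columns 72 to 94 that was drawn around a chain of 139 neighbouring low spots. Both spots were themselves part of this chain, so their place inside the rectangle follows from their own low values. Of the 22 member spots, the 20 others lay outside it. Around Ddit3, 78 single-spot probes within 10 rows and 10 columns had a median deviation of -0.84 log2 units from the other 3 arrays (quartiles -1.37 and -0.52), and Ddit3 itself deviated by -1.39, with 19 of the 78 lower still. Around Cebpg, 76 such probes had a median deviation of -1.35 (quartiles -1.93 and -0.78), and Cebpg deviated by -3.24, with 1 of the 76 lower. Ddit3 thus lay near the lower quartile of its surroundings, while Cebpg lay almost at their lowest end.

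With the local trend removed, the replicate 2 level of Ddit3 came to 3.96 and its SD to 0.25. The replicate 2 level of Cebpg came to 1.65 and its SD to 0.79, still the largest SD among the 10 genes. Whether the cells of replicate 2 held less of either transcript was not tested.

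**Figure D3:**
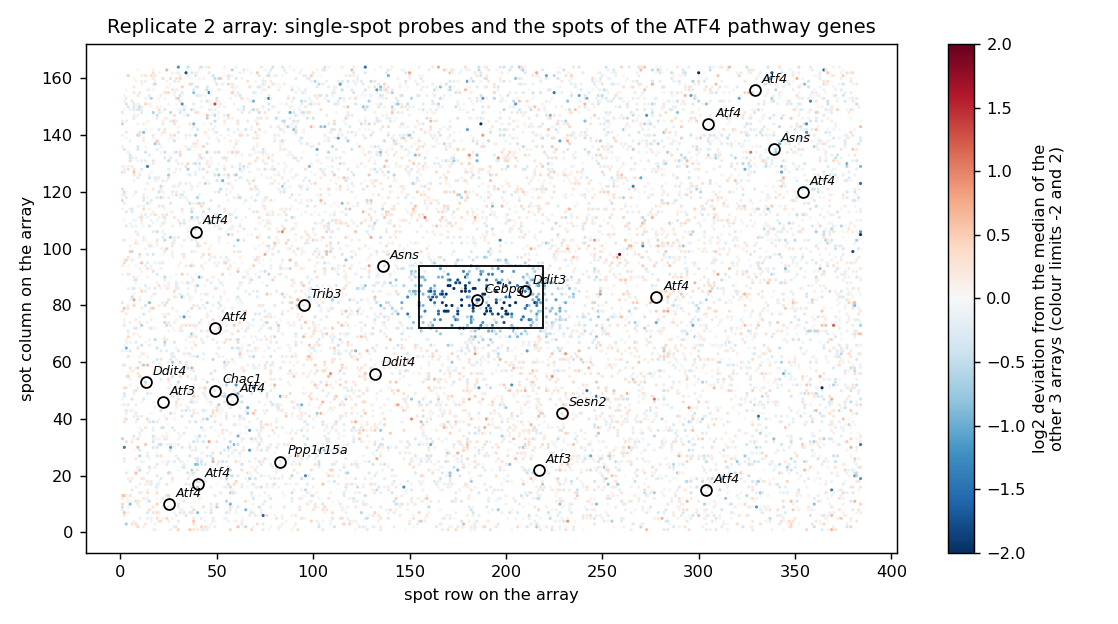
Replicate 2 array by spot row and column; each dot is a single-spot probe well above background on the other 3 arrays, coloured by its log2 deviation from their median, and circles mark the 22 spots of the 10 genes. The rectangle at rows 155 to 219 and columns 72 to 94 holds the spots of Cebpg and Ddit3 among lowered signals.

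Atf3 encodes a stress-induced bZIP repressor that ATF4 helps to induce. Its 2 spots gave mean signals of 164, 153, 88.0 and 127 intensity units on replicates 1 to 4, with the spots of an array 2.94% to 11.8% apart as a coefficient of variation. Replicate 3 was the lowest and replicates 1 and 2 were the highest. After scaling the order was different, with log2 levels of 1.98, 2.23, 1.90 and 2.36, a mean of 2.12 ± 0.21 (SD, n = 4). The highest and lowest arrays differed 1.37-fold. This SD was close to the median over all genes well above background, 0.23.

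Among the targets, Trib3 encodes a pseudokinase that binds ATF4 and CHOP and damps the response. Its single spot gave 1049, 1087, 915 and 1149.7 intensity units on replicates 1 to 4. These signals were nearly level, 1.26-fold apart, although the arrays differed in brightness. Scaling therefore widened them, to log2 levels of 4.66, 5.05, 5.28 and 5.54, a mean of 5.13 ± 0.37 (SD, n = 4) with replicates 1 and 4 apart by 1.84-fold. The SD was 0.14 without scaling and 0.24 without replicate 1.

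Asns encodes asparagine synthetase, a target of ATF4 in amino acid supply. Its 2 spots gave mean signals of 2399, 2264, 1917 and 1699 intensity units on replicates 1 to 4. Replicate 1 was the brightest and replicate 4 the dimmest, and the spots of an array varied by 1.51% to 4.70%. The log2 levels were 5.85, 6.11, 6.35 and 6.10, a mean of 6.10 ± 0.21 (SD, n = 4), with replicate 3 highest and replicate 1 lowest. Chac1 encodes an enzyme that degrades glutathione. Its spot gave 91.8, 63.9, 68.2 and 60.6 intensity units, replicate 1 being the highest. Its log2 levels were 1.14, 0.97, 1.54 and 1.29, a mean of 1.23 ± 0.24 (SD, n = 4).

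Sesn2 and Ddit4 encode sestrin 2 and REDD1, inhibitors of the growth kinase complex mTORC1. The Sesn2 spot gave 58.2, 65.4, 58.7 and 83.4 intensity units on replicates 1 to 4. Replicate 4 was the highest and the other arrays lay close together. After scaling the log2 levels were 0.48, 1.0, 1.32 and 1.75, a mean of 1.14 ± 0.53 (SD, n = 4) and a 2.41-fold distance between replicates 4 and 1. The better Ddit4 probe gave 58.9, 57.6, 75.9 and 63.6 intensity units, with replicate 3 highest. Its log2 levels were 0.50, 0.82, 1.69 and 1.36, a mean of 1.09 ± 0.53 (SD, n = 4), with replicates 3 and 1 apart by 2.28-fold. As for Trib3, the unscaled distances were smaller, 1.43-fold for Sesn2 and 1.32-fold for Ddit4.

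Sesn2, Ddit4 and Chac1 were measured close to the limit of the arrays. Their signals were 3.40 to 5.63 times the lowest signal called well above background on the same array. The second Ddit4 probe was well above background on no array, with signals of 12.3, 3.73, 3.80 and 10.1 intensity units. The 2 probes thus disagreed on whether the Ddit4 transcript was detected, and 9 of the 10 genes passed when every probe was required to.

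Ppp1r15a encodes GADD34, which brings a phosphatase to eIF2 and so ends the block on translation. Its spot gave 1378, 1072, 871 and 1052 intensity units on replicates 1 to 4. Replicate 1 was the brightest and replicate 3 the dimmest. The log2 levels were 5.05, 5.04, 5.21 and 5.41, a mean of 5.18 ± 0.17 (SD, n = 4), and the highest and lowest arrays differed 1.30-fold.

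The members differed widely in how evenly the replicates held them. Of the 10 genes, 4 had an SD above 0.5 log2 units, Cebpg, Ddit3, Sesn2 and Ddit4, while 5.73% of the 6418 genes well above background did. Without replicate 2 the SDs of Cebpg and Ddit3 were 0.34 and 0.10. Sesn2 and Ddit4 passed 0.5 log2 units narrowly. They did not pass it with the percentile over detected probes (0.47 and 0.48), without scaling (0.24 and 0.18) or without replicate 1 (0.38 and 0.44). The median SD of the 10 genes was 0.31, against 0.23 over all genes well above background, and without replicate 2 these medians were 0.25 and 0.24. The names of the genes had been chosen with the large spread of Cebpg and Ddit3 known, so the count of 4 is a description.

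**Figure D4:**
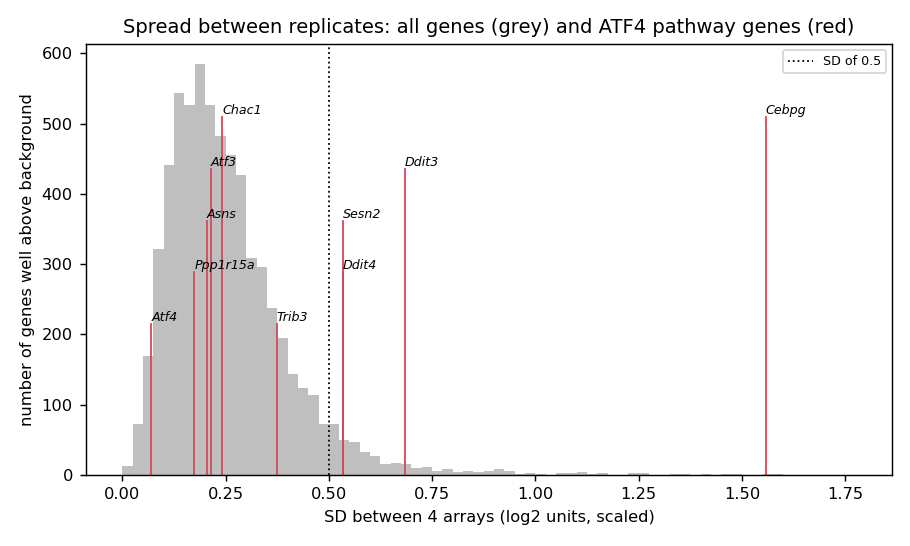
SD between the 4 arrays, in log2 units after scaling, of all 6418 genes well above background (grey bars, number of genes) and of the 10 genes (red lines, whose heights carry no meaning). Atf4 lies near the left edge at 0.07, Sesn2, Ddit4 and Ddit3 right of the dotted line at 0.5, and Cebpg far right at 1.56.

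Trib3, Chac1, Sesn2, Ddit4 and Ppp1r15a had lower scaled levels on both replicates 1 and 2 than on either of replicates 3 and 4. Atf4 was highest on replicate 1 and lowest on replicate 4, and Ddit3, Cebpg, Atf3 and Asns did not split in this way. Without scaling, Ddit4 kept the split, while Trib3, Chac1, Sesn2 and Ppp1r15a lost it. The split was described after the values were seen, and no share over all genes is set beside it. How often other genes split in this way was not counted, so the split is not read as a trait of these genes. On replicates 1 to 4, 3, 3, 9 and 8 of the 10 genes stood above their own mean. Of all genes well above background, 41.0%, 47.7%, 53.7% and 60.2% did. Ddit3 and Cebpg counted as above on replicates 1, 3 and 4. Their low replicate 2 values, with deviations of -1.02 and -2.30, had lowered their means. The counts were 3, 3, 7 and 7 with the percentile over detected probes and 3, 3, 7 and 8 with quantile normalization. Without scaling they were 8, 4, 2 and 4, against 94.3%, 77.0%, 7.0% and 20.4% of all genes. With the main scaling the median deviation of the 10 genes was -0.13, -0.14, 0.20 and 0.26 log2 units on replicates 1 to 4. That of all genes was -0.06, -0.01, 0.02 and 0.06. With quantile normalization the medians of the 10 were -0.09, -0.12, 0.20 and 0.23, and those of all genes lay within 0.02 of 0. Without scaling the 10 genes had medians of 0.35, -0.01, -0.14 and -0.01, against 0.42, 0.12, -0.33 and -0.20 over all genes. Against all genes, the 10 had lower medians on replicates 1 and 2 and higher medians on replicates 3 and 4 with the main scaling. The same held with quantile normalization. The main scaling shifts each array by 1 value, so this comparison without scaling is identical by construction and adds nothing. Array brightness and the position of a replicate cannot be told apart with 1 array per replicate.

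**Figure D5:**
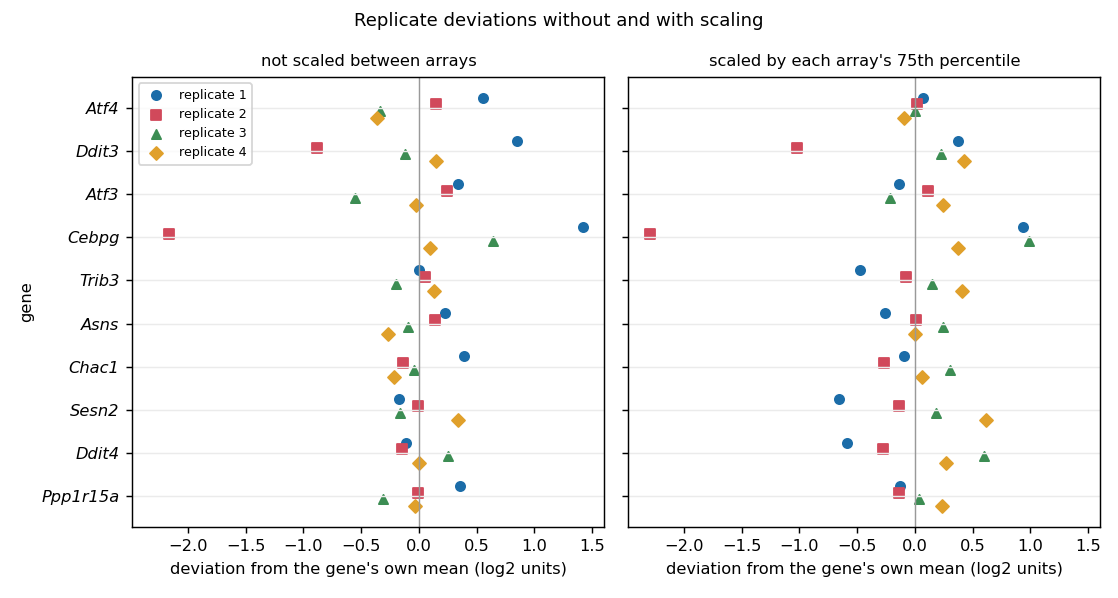
Deviation of each replicate from the gene's own mean over 4 arrays, in log2 units, without scaling (left) and relative to the 75th percentile of each array (right). Scaling draws the points of Atf4 together and spreads those of Trib3, Sesn2 and Ddit4, while on replicate 2 Cebpg stands apart in both panels and Ddit3 in the scaled one.

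The genes whose scaled deviations came closest to the median profile of the 10 were Ube2m, Meis3 and Poll, with root mean square distances of 0.05 log2 units each over the 4 arrays. As many as 382 genes lay within 0.1 of this profile, so it is not a pattern that marks these genes.

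Other genes of the pathway were counted in 6 lists of 72 genes, of which 69 were measured. Of these, 55 passed on all 4 arrays (79.7%), 5 passed on 1 to 3 arrays and 9 passed on none, where 38.7% of all genes passed on all 4. The eIF2 kinases were measured near the limit except Eif2ak1. Eif2ak1, the heme-regulated kinase, gave 389.6, 240.4, 188 and 153 intensity units on replicates 1 to 4, highest on replicate 1 and lowest on replicate 4. The same arrays were highest and lowest after scaling, with log2 levels of 3.23 and 2.63 and an SD over the 4 arrays of 0.25. Eif2ak2, the kinase activated by double-stranded RNA, also passed on all 4 arrays, at 42.1, 38.5, 21.6 and 22.6 intensity units. Eif2ak3, the kinase of the endoplasmic reticulum known as PERK, passed on replicates 1, 2 and 4, and Eif2ak4, the amino acid sensor GCN2, on replicates 1 and 2 only.

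Of 12 genes of eIF2, its exchange factor eIF2B and its phosphatases, 11 passed on all 4 arrays. Eif2s1, the subunit that is phosphorylated, stood at a log2 level of 5.19 ± 0.17 and Eif2b2, a subunit of the exchange factor, at 6.72 ± 0.06 (SD, n = 4 each). Eif2s3 passed on 3 arrays, all except replicate 3. Of 8 measured amino acid transporters 5 passed, among them Slc7a11, the cystine importer, at 3.52 ± 0.31, and its partner chain Slc3a2 at 5.41 ± 0.41 (SD, n = 4 each). Slc7a3, Slc1a4 and Slc6a9 passed on no array.

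Of 13 genes of serine, one-carbon and sulfur amino acid metabolism 10 passed on all 4 arrays. Phgdh and Psat1, which make serine, stood at log2 levels of 7.31 ± 0.13 and 5.78 ± 0.16 (SD, n = 4 each), Pycr1 passed on 3 arrays, and Cth and Cbs of transsulfuration on none. All 13 measured aminoacyl-tRNA synthetases passed, with Aars1 at 5.31 ± 0.09 and Gars1 at 6.31 ± 0.19 (SD, n = 4 each). Cars1 gave 131, 41.9, 89.8 and 75.2 intensity units, lowest on replicate 2, where its own low spot also lay in the rectangle of lowered signals, and its SD was 0.70.

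Of 19 other targets and partners of ATF4, 14 passed on all 4 arrays. Cebpb, a bZIP partner of ATF4, stood at a log2 level of 7.51 ± 0.30, Atf5, a related factor under similar translational control, at 2.24 ± 0.17, and Nupr1, a stress-induced chromatin protein, at 1.26 ± 0.15 (SD, n = 4 each). Gdf15, a secreted stress hormone, gave 680.3, 755, 605 and 915 intensity units on replicates 1 to 4, highest on replicate 4, and a level of 4.61 ± 0.49 (SD, n = 4). Gpt2 passed on replicate 2 only. Vldlr, Fgf21, Stc2 and Rrad passed on no array. Slc7a1, Xpot and Tnfrsf10b had no probe tied to their symbol here.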

How the data were processed

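Total RNA of 4 replicates was labelled with Cy3 and hybridised to 1-colour Agilent arrays. Per the submitters' processing notes the images were read with Agilent Feature Extraction 11.0.1.1. The files as deposited give linear intensities: each spot has a processed signal, which the authors did not scale between arrays, raw medians and flags. The software's error of this signal was 10.0% to 13.6% for member spots well above background, and the number of arrays limits precision.

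Control spots (4259) and outlier spots (491 to 828 per array) were dropped and spots of a probe averaged on the log2 scale. A probe passed on an array when a share of at least 0.5 of its spots was well above background, and 25.4% of 45598 probes passed on all 4. RefSeq transcripts of GRCr8 named 21109 probes by accession. A gene takes its probe with the highest mean. Low spots are those over 1 log2 unit under the median of the remaining arrays, chained within 5 rows and 5 columns, and the local trend is a median within 10 rows and 10 columns.

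Named are all 10 members, eIF2 kinases, genes passing on 1 to 3 arrays, up to 4 passing genes per list in list order (some are left out), and the 3 genes nearest to the median profile. Genes that passed on no array are named after their values were seen. The members and lists were chosen with earlier results of these data known. With 1 group no test between groups was made, and the spread between replicates may be partly technical. Procedures were tested on simulated data. The normexp alternative used the median signal (offset 50, limma 3.58.1, R 4.3.3), as the files hold no mean spot signal. The other steps ran in Python 3.11.15 with numpy 2.4.6 and pandas 2.3.3.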

Additional observations from a re-analysis of the deposited data

Results flagged for a closer look

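Dixon's ratio was computed for the 10 members and for the 55 other pathway genes that passed on all 4 arrays. It exceeded the 95% critical value for 1 member, Ddit3, whose large spread was known when the genes were chosen, so no rate expected by chance is set beside it. The ratio exceeded that value for 2 of the 55 other pathway genes, Atf5 and Aldh1l2. The lists of these genes were also chosen with earlier results known. The nominal chance rate of about 1 in 20 is therefore no test of this count. Ddit3 had a ratio of 0.863, with its low value on replicate 2 at a log2 level of 3.13, among lowered neighbouring spots. The remaining arrays gave 4.52, 4.38 and 4.57. Atf5 had a ratio of 0.939, with replicate 1 low at 1.99 and a mean over the 4 arrays of 2.24. Before scaling, replicate 1 gave the highest signal of Atf5, so its low place there holds for the scaled levels only. Aldh1l2, a mitochondrial enzyme of folate metabolism, had a ratio of 0.912, with replicate 4 high at 2.38 and a mean of 2.11, and it was named after its values were seen. The unscaled signal of Aldh1l2 was likewise highest on replicate 1 and not on replicate 4. The calls for Atf5 and Aldh1l2 thus rest on the scaling.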

How the results depend on the processing

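No paired analysis was possible because the samples form 1 group. The count of 10 genes well above background was 9 when all probes had to pass and 10 under the looser flag, 3 of 4 arrays, kept outlier spots and each left-out replicate. The 55 other pathway genes became 51 to 61 under these alternatives. The count of 4 genes with an SD above 0.5 was 2 when scaled over detected probes, 2 when left unscaled and 2 with the normexp correction, Cebpg and Ddit3 each time. It ranged from 2 to 3 when a replicate was left out: 2 without replicate 1 (Cebpg and Ddit3) or without replicate 2 (Sesn2 and Ddit4), and 3 without replicate 3 or without replicate 4. It was 3 with the mean of all probes and with the local trend removed, and 4 with quantile normalization. The median SD of 0.31 was 0.19 with the normexp correction, whose added offset narrows differences by construction, and lay between 0.25 and 0.32 when a replicate was left out. The mean level of each gene moved by less than its own SD with quantile normalization and with the local trend removed. Leaving out 1 of 4 arrays cannot move a mean by its own SD, so those settings are no check of the mean level. With the mean of all probes Ddit4, the 1 member with a second probe, had a mean level of -0.56 in place of 1.09. Other zero points shift it by construction. Low signals limit Sesn2, Ddit4 and Chac1 most.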
